A study of Bos taurus with 35 samples.

Results

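The ubiquitin system tags proteins for destruction and the proteasome destroys them, and 44 genes named for that machinery changed in level in beef muscle stored after slaughter. The 44 genes were those whose symbol, in the study's lists of differentially expressed (DE) genes, begins with a prefix of the proteasome subunits and their assembly factors (PSM), the ubiquitin-conjugating enzymes (UBE2, UBE3), the cullins (CUL), the F-box proteins (FBXO, FBXW, FBXL), the tripartite motif proteins (TRIM) or the ubiquitin-specific proteases (USP). They were 44 of the 27607 genes in the count table, and all 44 were among the 14630 genes expressed highly enough to be tested. A gene entered those lists by differing from 0 h at a later time point, so that every level and fold change against 0 h given here describes what chose the genes and is no test of them. The copy of the lists used here held 1999 genes lower at 72 h, where the fit called 2256, so that genes of the ubiquitin system with lower levels at 72 h may be missing and any count by direction below covers only the 44.

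RNA-Seq was performed on core samples of the *longissimus thoracis* (*LT*), the muscle of the rib-eye, of 7 crossbred (British × Continental) beef heifers. Each heifer was sampled shortly after slaughter (0 h) and again at 6, 24, 48 and 72 h *post-mortem*, from the left side of a carcass kept in a drip cooler, which gave 35 libraries of 7 animals at 5 time points. All animals were finished on a barley-based diet, stunned by captive bolt and bled, there was no untreated group, and the same 7 animals served at every time point. Of a list of 12 muscle fibre genes, only the 5 in the DE lists could be named (*CKM*, *TNNT3*, *TNNI2*, *TNNC2*, *MYLPF*). Together these 5 took 40800 to 49200 CPM (counts scaled to a common library total) at 0 h. No other tissue was compared, so that this level describes the samples and is no test of muscle identity.

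Ubiquitin is passed from an activating enzyme to a conjugating enzyme (E2) and then, with the help of a ligase (E3), onto a target protein. Many ligases are modular: a cullin is the scaffold, and an F-box or similar protein picks the target. Deubiquitinases such as the USP enzymes take ubiquitin off again, and the proteasome, a barrel-shaped protease capped by a regulatory particle that unfolds its clients, degrades what stays tagged. In living skeletal muscle this route is best known for wasting, in which the ligase encoded by *FBXO32* (atrogin-1) is a marker gene.

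Total counts per library ranged from 20568418 to 104275821, with a median of 40133660. DE means here a false discovery rate (FDR) under 0.05 with a change of over 1.5 fold, from edgeR's quasi-likelihood test with the animal as a block. No member was DE at 6 h, where 0.349% of all genes tested were upregulated and 0.185% downregulated, and no member was DE at 24 h, where the shares were 0.725% and 0.95%. At an unadjusted p under 0.05, 2 of the 15 members later listed at 48 h and 4 of the other 29 differed at 6 h, beside 14.5% of all genes, and 8 of the 15 and 7 of the 29 at 24 h, beside 23% of all genes. By 48 h, 2 members were upregulated and 13 downregulated, beside 2.96% and 6.3% of all genes. By 72 h, 11 members were upregulated and 33 downregulated, beside 9.8% and 15.4% of all genes. Of the 44 members, 39 had moved in the same direction in every animal by 72 h, and the samples of 0 h and 72 h did not overlap for 7 upregulated and 23 downregulated members, beside 7.9% and 10.1% of all genes that lay wholly above or below. Since all members were taken from the DE lists, nothing is read from these shares. In bulk tissue, fewer cells of a type and less RNA per cell cannot be told apart.

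The directions at 72 h are given by role as a description of genes that were chosen for their change, and no difference between roles was tested. Of the 6 members that encode proteasome subunits or their assembly chaperones, 5 were upregulated at 72 h, and the median log2 fold change of the 6 was 0.70. Of the 31 cullin, F-box, TRIM and USP members, 28 were downregulated and 3 upregulated, with a median of -0.95. The 6 E2 enzymes were split, with 2 upregulated and 4 downregulated and a median of -0.70. The median over all genes tested was 0.014. The last of the 44, *PSMC3IP*, was picked by its prefix but encodes a partner of the meiotic recombinases and no part of the proteasome. The member nearest the 1.5-fold threshold (0.585 on the log2 scale) was *TRIM25* at -0.59, and the nearest upregulated one was *FBXL15* at 0.59. Genes outside the DE lists carry no symbol in the files, so the gene just below the threshold cannot be given, and the members are not a sample of their families: bovine RefSeq annotation holds 262 protein-coding symbols with these prefixes.

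**Figure D1:**
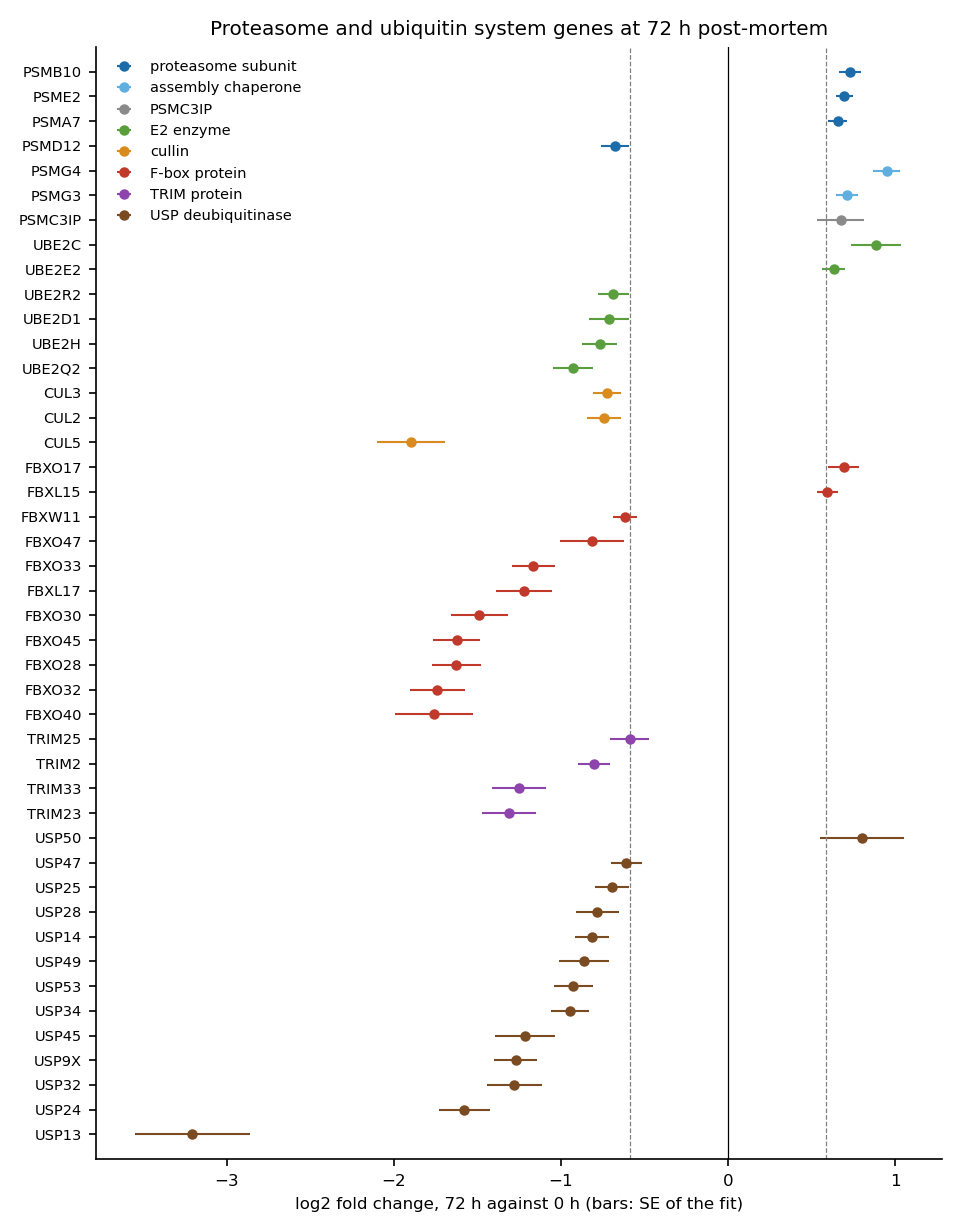
Log2 fold change at 72 h against 0 h (x axis) of all 44 genes (y axis), coloured by role, with bars for the SE of the fit and dashed lines at the 1.5-fold threshold of 0.585. Proteasome subunits and assembly chaperones lie to the right except *PSMD12* at -0.68, whereas ligases and deubiquitinases lie to the left except *FBXO17*, *FBXL15* and *USP50*, and *USP13* at -3.21 lies farthest.

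*PSMA7* (ENSBTAG00000005127) encodes a subunit of the outer alpha ring of the proteasome barrel. *PSMA7* had a lowest, median and highest animal of 104, 106 and 115 CPM at 0 h, 100.1, 118 and 129 CPM at 6 h, 108, 125 and 132 CPM at 24 h, 129, 140.4 and 158 CPM at 48 h and 145, 162 and 196 CPM at 72 h. The 7 samples of 72 h lay above the 7 of 0 h, and so did those of 48 h. Its log2 fold change (± SE throughout) was 0.41 ± 0.057 at 48 h and 0.65 ± 0.057 at 72 h, higher in 7 of 7 animals at both.

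*PSMB10* (ENSBTAG00000018040) encodes a catalytic subunit that replaces the standard one in the immunoproteasome, the form made by immune cells and by cells exposed to interferon. *PSMB10* had a lowest, median and highest animal of 11.02, 15.3 and 16.2 CPM at 0 h, 11.6, 15.8 and 16.6 CPM at 6 h, 12.04, 15.1 and 20.8 CPM at 24 h, 15.5, 17.9 and 27.1 CPM at 48 h and 19.5, 23.02 and 31.6 CPM at 72 h. All 7 samples of 72 h exceeded all 7 of 0 h, animal 206 was the highest at 24, 48 and 72 h, and animal 107 was the lowest at every time point but 48 h. The change at 72 h was 0.73 ± 0.065 on the log2 scale. In RefSeq *PSMB10* overlaps *LCAT* by position, with strand not considered, so that its reads are uncertain.

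*PSME2* (ENSBTAG00000005814) encodes a subunit of the activator ring that can cap the barrel in place of the regulatory particle and that is also induced by interferon. *PSME2* had a lowest, median and highest animal of 21.6, 23.4 and 28.3 CPM at 0 h, 21.4, 25.5 and 31.5 CPM at 6 h, 21.6, 28.1 and 31.8 CPM at 24 h, 26.1, 30.9 and 40.6 CPM at 48 h and 31.3, 37.9 and 50.1 CPM at 72 h. The samples of 0 h and 72 h did not overlap, while those of 48 h still overlapped 0 h. Its log2 fold change at 72 h was 0.69 ± 0.051.

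*PSMB10* and *PSME2* are genes that leukocytes express strongly. Marker genes could be named only from the DE lists, so that each was known to have changed and unchanged markers could not appear. All 8 leukocyte markers that could be named of a list of 12 (*CD2*, *CD3D*, *CD3E*, *CD3G*, *CD8A*, *KLRD1*, *PRF1*, *CD52*) were upregulated at 72 h, their summed level went from 6.72 to 13.5 CPM at 0 h to 14.1 to 19.9 CPM at 72 h, and none was at 0 in any of those samples. Macrophages are leukocytes too, but all 5 macrophage markers named of 8 (*CD163*, *CSF1R*, *C1QA*, *C1QB*, *MRC1*) were downregulated. Their sum went from 36.7 to 125 CPM at 0 h to 12.5 to 43.1 CPM at 72 h, also with none at 0. All 7 adipocyte markers were downregulated too (374 to 675 CPM at 0 h, 162 to 320 CPM at 72 h), with 1 of them at 0 in at least 1 sample of 72 h, and the 5 muscle fibre genes were upregulated, to 67700 to 105000 CPM with none at 0. The part of any of these cell types in the proteasome or ligase results was not tested.

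*PSMD12* (ENSBTAG00000002423) was the subunit that went the other way, and it belongs to the lid of the regulatory particle. *PSMD12* had a lowest, median and highest animal of 56.1, 63.8 and 70.6 CPM at 0 h, 54.8, 60.9 and 64.9 CPM at 6 h, 47.4, 60.6 and 66.8 CPM at 24 h, 36.02, 50.6 and 60.2 CPM at 48 h and 27.04, 39.1 and 54.5 CPM at 72 h. At 72 h all samples lay below those of 0 h, with animal 206 lowest and animal 202 highest. The log2 fold change was -0.68 ± 0.084, lower in 7 of 7 animals, and it was -0.58 without animal 206, just short of the fold threshold. Another small lid subunit, *SEM1*, which the prefixes do not cover, was upregulated at 72 h (0.81 ± 0.060), so that the 2 named members of the regulatory particle without ATPase activity, of 13 in the list, moved in opposite directions.

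*PSMG4* (ENSBTAG00000031249) and *PSMG3* (ENSBTAG00000000050) encode chaperones that help to assemble the alpha ring. *PSMG4* had a lowest, median and highest animal of 10.3, 11.98 and 14.2 CPM at 0 h, 12.4, 14.1 and 16.3 CPM at 6 h, 12, 13.98 and 17.8 CPM at 24 h, 14.96, 18.3 and 22.4 CPM at 48 h and 18.3, 23.3 and 30.6 CPM at 72 h. *PSMG4* was the only one of the 6 to be DE as early as 48 h, with samples that no longer overlapped those of 0 h, and animal 206 was the highest from 24 h on. *PSMG3* had a lowest, median and highest animal of 6.53, 7.34 and 8.37 CPM at 0 h, 7.21, 8.27 and 8.93 CPM at 6 h, 6.9, 8.1 and 10.4 CPM at 24 h, 7.32, 9.9 and 13.2 CPM at 48 h and 9.12, 11.6 and 16.2 CPM at 72 h. For *PSMG3* the samples of 72 h lay above all of 0 h, again with animal 206 highest. The changes at 72 h were 0.95 ± 0.078 for *PSMG4* and 0.71 ± 0.066 for *PSMG3*.

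*PSMC3IP* (ENSBTAG00000020907) was low at all times. *PSMC3IP* had a lowest, median and highest animal of 0.778, 1.05 and 1.18 CPM at 0 h, 0.782, 1.23 and 1.45 CPM at 6 h, 0.774, 1.35 and 1.89 CPM at 24 h, 1.001, 1.22 and 1.85 CPM at 48 h and 1.05, 1.62 and 2.47 CPM at 72 h. Its samples overlapped at every time point, 6 of 7 animals were higher at 72 h, and the change of 0.67 ± 0.14 was 0.57 without animal 206. RefSeq places it over *MLX*, so that its reads are uncertain as well.

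*RPS27A* encodes ubiquitin fused to a ribosomal protein and is no member by its prefix. It ranged from 192 to 234 CPM at 0 h and from 279.7 to 371 CPM at 72 h, with no overlap, and was upregulated with a change of 0.63 ± 0.052.

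**Figure D2:**
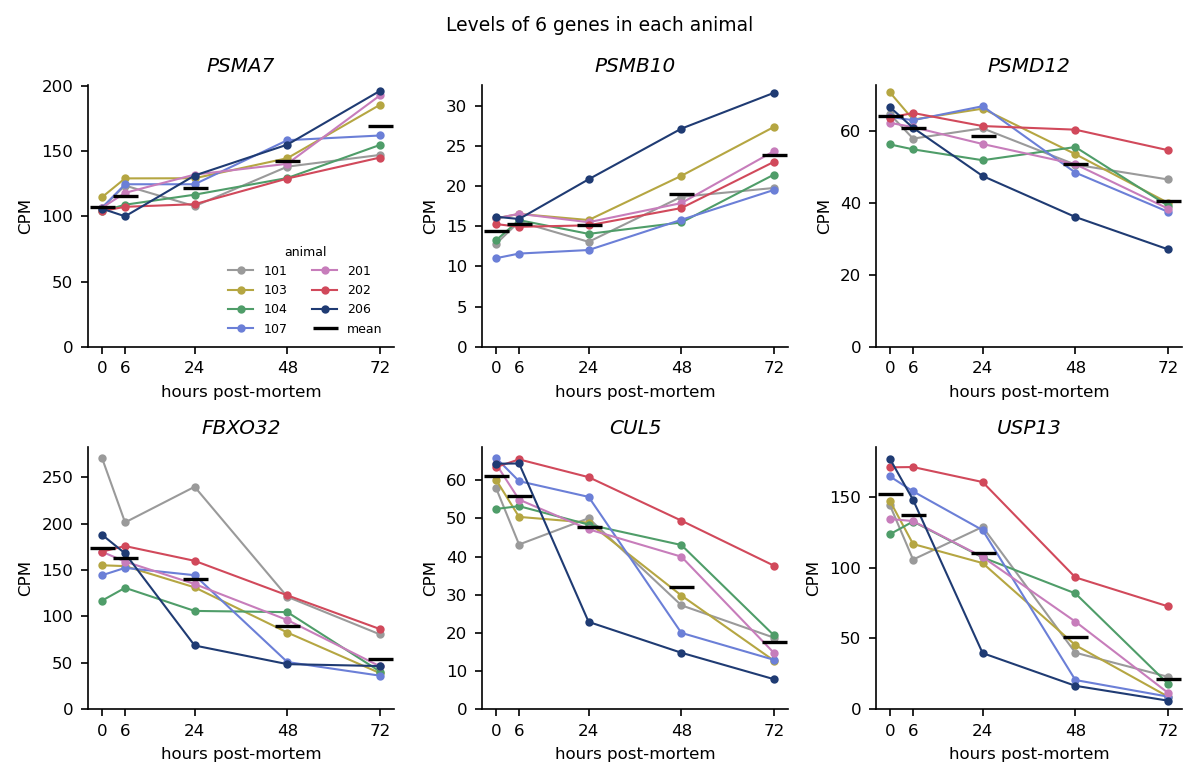
CPM (y axis, starting at 0) against hours *post-mortem* (x axis) for 6 genes, with 1 line per animal and black dashes for the mean of 7 animals. *PSMA7* and *PSMB10* climb and *PSMD12*, *FBXO32*, *CUL5* and *USP13* drop, with animal 206 lowest at 24 h in the 4 genes that drop, and animal 202 highest in them at 72 h.

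Among the E2 enzymes, the downregulated ones were *UBE2Q2*, *UBE2H*, *UBE2D1* and *UBE2R2*. *UBE2Q2* (ENSBTAG00000004024) encodes a conjugating enzyme with an extended amino-terminal part. *UBE2Q2* had a lowest, median and highest animal of 35.5, 39.6 and 44.9 CPM at 0 h, 35.99, 39.97 and 45.1 CPM at 6 h, 25.5, 37.8 and 41.6 CPM at 24 h, 20.2, 30.5 and 37.8 CPM at 48 h and 13.8, 20.96 and 33.97 CPM at 72 h. It changed by -0.93 ± 0.12 at 72 h, without overlap between 72 h and 0 h. *UBE2H* (ENSBTAG00000000911) encodes the E2 of the CTLH ligase complex. *UBE2H* had a lowest, median and highest animal of 35.5, 47.2 and 49.7 CPM at 0 h, 39.3, 47.3 and 48.8 CPM at 6 h, 30.8, 44.2 and 52.1 CPM at 24 h, 27.2, 36.99 and 42.5 CPM at 48 h and 19.9, 24.4 and 37.9 CPM at 72 h. Its samples overlapped at all times although all 7 animals were lower at 72 h, with a fitted change of -0.77 ± 0.10. *UBE2D1* (ENSBTAG00000020796) encodes a widely used E2 that works with many ligases. *UBE2D1* had a lowest, median and highest animal of 50.9, 76.7 and 90.3 CPM at 0 h, 44.5, 66.9 and 89.1 CPM at 6 h, 32.1, 65.2 and 83.7 CPM at 24 h, 23.8, 54.2 and 81.7 CPM at 48 h and 17.96, 43.4 and 80.1 CPM at 72 h. The animals of *UBE2D1* differed already at 0 h, 6 of 7 were lower at 72 h, and the change was -0.71 ± 0.12.

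*UBE2R2*, an E2 that extends ubiquitin chains on cullin ligases, changed by -0.69 ± 0.092. The upregulated E2 genes were *UBE2C* (0.89 ± 0.15), the E2 of the anaphase-promoting complex, and *UBE2E2* (0.63 ± 0.071). *UBE2C* was low, at a median of 0.595 CPM at 0 h and 1.17 CPM at 72 h, and its samples overlapped. It is a gene of dividing cells, and the 5 cycling markers named of 8 (*MKI67*, *TOP2A*, *CCNB1*, *CDC20*, *PLK1*) were all upregulated at 72 h, with a sum of 7.87 to 11.5 CPM at 0 h and 10.9 to 24.3 CPM at 72 h, and none at 0 in those samples. These markers could be named only because they were in the DE lists, and their part in the level of *UBE2C* was not tested.

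All 3 cullin members were downregulated. *CUL5* (ENSBTAG00000012882) encodes the scaffold of ligases that carry SOCS-box receptors. *CUL5* had a lowest, median and highest animal of 52.5, 63.4 and 65.9 CPM at 0 h, 43.1, 54.9 and 65.5 CPM at 6 h, 22.9, 48.9 and 60.8 CPM at 24 h, 14.8, 29.8 and 49.4 CPM at 48 h and 7.83, 14.7 and 37.6 CPM at 72 h. Its samples of 48 h and of 72 h lay wholly below those of 0 h, and animal 202 stood apart at the top at 72 h. The log2 fold change was -1.02 ± 0.20 at 48 h and -1.90 ± 0.20 at 72 h, which left 26.9% of the 0 h level. *CUL2* (ENSBTAG00000007133), the scaffold of the von Hippel-Lindau ligase, varied little at 0 h. *CUL2* had a lowest, median and highest animal of 53.7, 56.1 and 58.1 CPM at 0 h, 51.2, 52.7 and 56.9 CPM at 6 h, 38.03, 52.4 and 54.7 CPM at 24 h, 27.5, 44.9 and 52.3 CPM at 48 h and 17.6, 35.2 and 48.5 CPM at 72 h. The samples of 48 h and of 72 h did not overlap those of 0 h, with a change of -0.74 ± 0.10 at 72 h. *CUL3* (ENSBTAG00000021769) encodes the scaffold that pairs with BTB proteins. *CUL3* had a lowest, median and highest animal of 138, 155 and 159.5 CPM at 0 h, 136, 144 and 155 CPM at 6 h, 99.4, 141 and 146 CPM at 24 h, 82.02, 124 and 140.1 CPM at 48 h and 64.8, 95.9 and 114 CPM at 72 h. The change of *CUL3* was -0.72 ± 0.083, without overlap at 72 h.

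Of a list of 23 core components and regulators of cullin ligases, only the 4 in the DE lists could be named. At 72 h 3 of them were upregulated and 1 was downregulated. The copy of those lists lacks some genes lower at 72 h, so that no direction is read for the partners as a set. The elongin *ELOB*, which links *CUL2* and *CUL5* to their receptors, was upregulated by 0.96 ± 0.081, and the signalosome subunits *COPS6* and *COPS9*, part of the complex that switches cullins off, were upregulated by 0.69 ± 0.051 and 0.63 ± 0.058. In contrast, *COPS2* of the same complex was downregulated with a change of -0.61 ± 0.10. *COPS6* ranged from 40.3 to 52.9 CPM at 0 h and from 62.02 to 85.6 CPM at 72 h, and *COPS2* from 44.99 to 57.2 CPM and from 20.2 to 44.04 CPM, and neither overlapped.

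The F-box members included the 3 muscle ligases of wasting, *FBXO32*, *FBXO40* and *FBXO30*, all downregulated. *FBXO32* (ENSBTAG00000016194), or atrogin-1, differed between animals from the start. *FBXO32* had a lowest, median and highest animal of 117, 169.6 and 271 CPM at 0 h, 131, 159 and 201 CPM at 6 h, 68.5, 135 and 239.6 CPM at 24 h, 48.4, 96 and 123 CPM at 48 h and 35.98, 46.01 and 86.2 CPM at 72 h. Animal 101 was the highest up to 24 h, animal 206 had the lowest level at 24 h, and no sample of 72 h reached any of 0 h. The log2 fold change was -0.97 ± 0.16 at 48 h and -1.74 ± 0.17 at 72 h, lower in 7 of 7 animals at both, leaving 29.9% of the 0 h level. *FBXO40* (ENSBTAG00000014508) encodes a muscle-restricted F-box protein that targets the insulin signalling protein IRS1. *FBXO40* had a lowest, median and highest animal of 145, 168 and 253 CPM at 0 h, 107, 164 and 233 CPM at 6 h, 104, 154 and 229 CPM at 24 h, 61.7, 89.4 and 138 CPM at 48 h and 26.8, 54.4 and 135 CPM at 72 h. The samples of 48 h and of 72 h lay below those of 0 h, but animal 202 stood apart at 72 h, where the next highest animal was at 64.2 CPM. It changed by -1.76 ± 0.23 at 72 h. *FBXO30*, or MUSA1, ranged from 19.8 to 28.99 CPM at 0 h and from 4.54 to 16.4 CPM at 72 h, a change of -1.49 ± 0.17.

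Some ligases that act in muscle but lack an F-box were also in the DE lists and went the same way. Muscle ligases outside those lists could not be named, so that nothing is read for muscle ligases as a class. Of the list of 23 muscle ligases, 9 had a symbol in the DE lists, namely the 3 above and *NEDD4*, *MDM2*, *WWP1*, *UBR1*, *UBR2* and *ITCH*. All 9 were downregulated at 72 h and 7 of them at 48 h, with a median of -1.38 at 72 h. *MDM2*, the ligase of p53, changed by -1.46 ± 0.16, *UBR1*, a ligase of the N-degron route, by -1.38 ± 0.12 and *ITCH* by -1.25 ± 0.12. *WWP1* had the smallest change, -0.71 ± 0.15, and was lower in 6 of 7 animals.

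*FBXO28* (ENSBTAG00000019538) was the third of the F-box genes by size of change. *FBXO28* had a lowest, median and highest animal of 11.5, 15.8 and 16.6 CPM at 0 h, 10.9, 14.2 and 16.01 CPM at 6 h, 6.9, 13.4 and 14.8 CPM at 24 h, 5.44, 8.26 and 11.1 CPM at 48 h and 3.27, 4.38 and 9.41 CPM at 72 h. Neither its 48 h nor its 72 h samples overlapped 0 h, animal 202 again was highest at 72 h, and the change was -1.63 ± 0.15. RefSeq places it over *NVL*. The other downregulated F-box genes were *FBXO45* (-1.62 ± 0.14), *FBXL17* (-1.22 ± 0.17), which removes mispaired BTB proteins, *FBXO33* (-1.17 ± 0.13), *FBXO47* (-0.82 ± 0.19) and *FBXW11* (-0.62 ± 0.072), which encodes a beta-TrCP receptor. *FBXO17* (0.69 ± 0.093) and *FBXL15* (0.59 ± 0.062) were upregulated, each in 7 of 7 animals. The 72 h samples of *FBXO17* lay above those of 0 h, whereas those of *FBXL15* overlapped.

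All 4 TRIM members were downregulated. *TRIM23* (ENSBTAG00000009519) encodes a ligase with a GTPase domain. *TRIM23* had a lowest, median and highest animal of 12.1, 13.98 and 18.2 CPM at 0 h, 11.9, 13.4 and 16.1 CPM at 6 h, 8.7, 12.9 and 17.1 CPM at 24 h, 4.98, 8.87 and 15.1 CPM at 48 h and 3.6, 5.72 and 12.3 CPM at 72 h. At 72 h animal 202 lay inside the 0 h range and the other 6 animals, at up to 6.66 CPM, lay below it, with a fitted change of -1.31 ± 0.16. *TRIM33* (ENSBTAG00000001499) encodes a chromatin-bound ligase of the SMAD pathway. *TRIM33* had a lowest, median and highest animal of 7.31, 11.1 and 12.97 CPM at 0 h, 9.47, 11.3 and 14.7 CPM at 6 h, 5.28, 10 and 14.1 CPM at 24 h, 5.59, 6.49 and 9.99 CPM at 48 h and 2.23, 4.71 and 8.18 CPM at 72 h. The lowest sample of 0 h, of animal 104, lay inside the 72 h range, and the change was -1.25 ± 0.16. *TRIM2* (ENSBTAG00000008816), known as a ligase of neurofilament, varied between animals at all times. *TRIM2* had a lowest, median and highest animal of 35.2, 49.9 and 66.9 CPM at 0 h, 29.4, 52.2 and 68.5 CPM at 6 h, 30.9, 48.8 and 63.1 CPM at 24 h, 19.5, 33.4 and 52.6 CPM at 48 h and 19.6, 29.8 and 47.7 CPM at 72 h. It was lower in 7 of 7 animals at 72 h, with a change of -0.80 ± 0.10 and with overlap. *TRIM25*, a ligase of antiviral sensing, changed by -0.59 ± 0.12 and was lower in 6 of 7 animals.

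Of the 13 USP deubiquitinases, 12 were downregulated at 72 h. *USP13* (ENSBTAG00000005946) showed the largest change of the 44 members, with a level at 72 h of 10.8% of that at 0 h. *USP13* had a lowest, median and highest animal of 124, 147 and 177 CPM at 0 h, 106, 133 and 171 CPM at 6 h, 39.6, 108 and 160.5 CPM at 24 h, 16.5, 45.2 and 93.1 CPM at 48 h and 5.94, 11.4 and 72.6 CPM at 72 h. The 48 h and 72 h samples lay below all those of 0 h, animal 206 had dropped by 24 h, and animal 202 at 72 h stood far above the other 6. The log2 fold change was -1.75 ± 0.32 at 48 h and -3.21 ± 0.34 at 72 h. RefSeq places *USP13* over *PEX5L*. *USP24* (ENSBTAG00000016990) encodes one of the large, many-domain deubiquitinases. *USP24* had a lowest, median and highest animal of 61.2, 76.1 and 92.7 CPM at 0 h, 57.9, 70.99 and 88.98 CPM at 6 h, 37.5, 65.8 and 83.8 CPM at 24 h, 30.6, 39.99 and 59.5 CPM at 48 h and 19.1, 27.5 and 42.4 CPM at 72 h. Neither 48 h nor 72 h overlapped 0 h, and the change was -1.58 ± 0.15. *USP32* (ENSBTAG00000020089) encodes a membrane-anchored deubiquitinase. *USP32* had a lowest, median and highest animal of 36.9, 44.01 and 48.1 CPM at 0 h, 34.7, 40.8 and 46.6 CPM at 6 h, 21.3, 34.9 and 46.5 CPM at 24 h, 15.7, 29.5 and 43.3 CPM at 48 h and 8.46, 15.2 and 35.6 CPM at 72 h. The samples of 48 h overlapped those of 0 h and those of 72 h did not, with a change of -1.28 ± 0.17.

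*USP14*, the deubiquitinase that sits on the proteasome itself, was downregulated with a change of -0.81 ± 0.10, from a range of 46.9 to 55.5 CPM at 0 h to one of 21.5 to 42.4 CPM at 72 h. It thus went the way of *PSMD12* and not of the other subunits. *USP9X*, an abundant deubiquitinase of many substrates, changed by -1.27 ± 0.13, *USP45* by -1.21 ± 0.18, *USP34* by -0.95 ± 0.11 and *USP53* by -0.93 ± 0.12. The changes of *USP49*, *USP28*, *USP25* and *USP47* were -0.86, -0.78, -0.69 and -0.61. *USP50*, the one upregulated USP gene, was low, with a median of 0.505 CPM at 0 h and 0.889 CPM at 72 h, overlapping samples and a change of 0.80 ± 0.25. *USP34*, *USP45*, *USP49* and *USP53* each overlap another protein-coding gene in RefSeq, as do the E2 gene *UBE2E2* and the F-box gene *FBXW11*.

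The members were listed for differences between 0 h and 48 or 72 h. The step from 6 h to 24 h compared samples of other time points. It is not wholly independent of that choice, since the fit drew each gene's spread from all 35 samples. From 6 h to 24 h no member passed the test (edgeR's quasi-likelihood test, lowest adjusted p = 0.83), none had an unadjusted p under 0.05 (6.27% of all genes did), and DESeq2 and limma voom also called none. Of all genes tested, 0.0342% were higher and 0.588% lower at an FDR under 0.05 at this step. The median log2 difference of the 31 ligases and deubiquitinases was -0.13 and that of the 6 proteasome genes 0.025.

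The step from 24 h to 48 h is a description, since the choice of members listed at 72 h and not at 48 h draws on the samples of 48 h. Of these 29 members, 5 were higher and 5 lower at an FDR under 0.05, beside 9.56% and 9.84% of all genes, and 20 of the 29 had an unadjusted p under 0.05, beside 33.5% of all genes. Nothing is read from these shares. The 5 that were higher were the proteasome genes *PSMB10* (log2 difference 0.32 ± 0.065), *PSME2* (0.26 ± 0.051), *PSMA7* (0.23 ± 0.057) and *PSMG3* (0.21 ± 0.066), and the F-box gene *FBXL15* (0.23 ± 0.063). The first 3 of them and *FBXL15* were higher in 7 of 7 animals, and *PSMG3* in 5 of 7. The 5 that were lower were *TRIM2* (-0.33 ± 0.10), *UBE2H* (-0.31 ± 0.10), *USP53* (-0.34 ± 0.11), *USP14* (-0.29 ± 0.10) and *FBXO33* (-0.36 ± 0.13). The first 4 of these were lower in 7 of 7 animals, and *FBXO33* in 5 of 7. *PSMD12* did not reach that FDR (-0.21 ± 0.083). Without the animal block none of the 10 reached it, and without animal 101 or 107 none of the 5 lower ones did. Of the 15 members already listed at 48 h, 1, *PSMG4*, was higher and 10 were lower, from *USP13* at -1.18 to *USP9X* at -0.38.

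**Figure D3:**
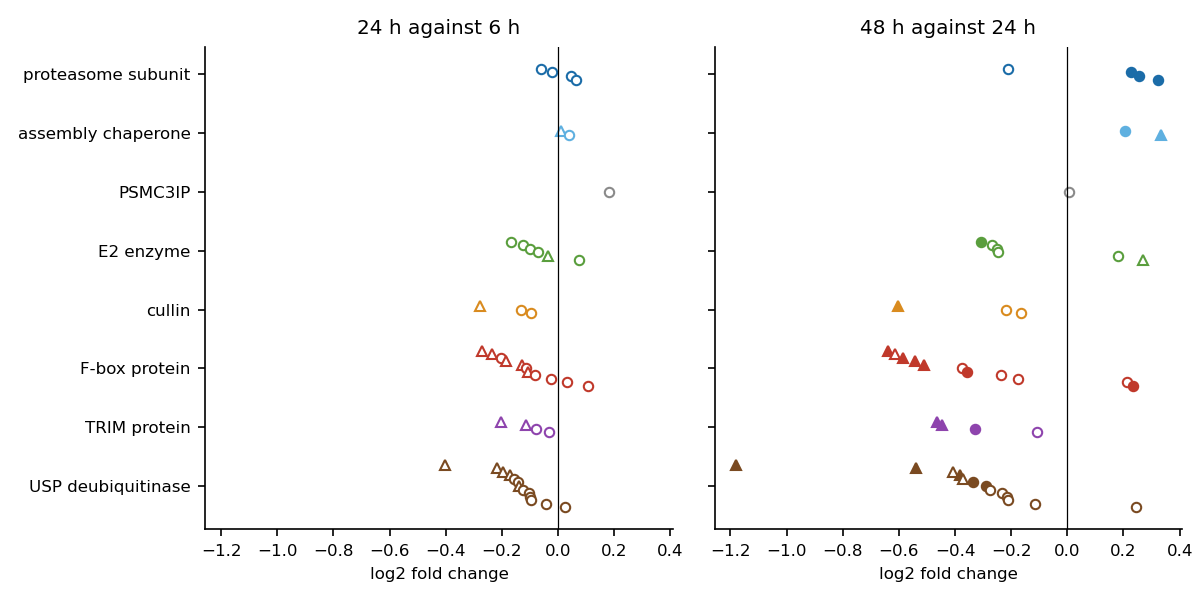
Log2 fold change (x axis) of each member by role (y axis) from 6 h to 24 h (left) and from 24 h to 48 h (right), with filled symbols for an FDR under 0.05, circles for the 29 members listed at 72 h only and triangles for the 15 listed at 48 h. All symbols on the left are open, and on the right 3 of 4 proteasome subunits and both assembly chaperones are filled and lie to the right of 0.

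Individual animals took different courses. The median log2 change of the 31 ligases and deubiquitinases at 72 h against 0 h in the same animal was -0.43 in animal 202, -0.68 in animal 104, -0.94 in animal 101, -1.17 in animal 107, -1.18 in animal 201, -1.35 in animal 103 and -1.58 in animal 206. In each animal 28 of the 31 were lower and 3 higher. For the 6 proteasome genes the same median ran from 0.50 in animal 202 to 0.92 in animal 206, with 5 of 6 higher in every animal. The animal with the smallest change and the animal with the largest were thus the same in both groups, which were scaled to the same library totals and are not independent measures.

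The early step was where animal 206 stood apart. From 6 h to 24 h its 31 ligases and deubiquitinases had a median log2 change of -0.79, with 27 of 31 lower, whereas the other animals lay between -0.10 and 0.19. *USP13* in animal 206 was at 148 CPM at 6 h and 39.6 CPM at 24 h, and *CUL5* at 64.4 and 22.9 CPM. The 6 proteasome genes of that animal had a median change of 0.39 over the same hours, the highest of the 7. Animal 101 went the other way at this step, with 28 of its 31 ligases and deubiquitinases higher at 24 h than at 6 h. Its sample of 6 h was a low starting point. There 29 of the 31 were lower than at 0 h, with a median of -0.28, the lowest of the 7 animals. At 24 h the median of animal 101 against 0 h was -0.09, so that its ligases and deubiquitinases had not risen above 0 h.

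At 24 h animal 206 had the lowest level in 27 of the 33 members called lower at 72 h (81.8%), compared with 64.5% of all 2256 genes called lower at 72 h. At 72 h animal 202 had the highest level in 28 of the 33 (84.8%), compared with 63.7% of those genes. The course of these animals was hence shared by most downregulated genes, and no test was made of the difference in shares. The library of animal 206 at 24 h had 21716752 counts and that of animal 202 at 72 h had 70766928, and the part of depth was not tested. The study also measured how intact the RNA of each sample was, and reports an average that dropped slightly at the later time points. The part of RNA integrity in the changes with time, or in the differences between animals, was not tested. Leukocyte markers summed to 13.4 CPM in animal 206 at 24 h, within the range of the other 6 (9.3 to 14.7), and adipocyte markers to 194 CPM, below the other 6 (250 to 359). In the same sample the muscle fibre genes summed to 60930 CPM and the cycling markers to 14.4 CPM, both above the other 6 animals (up to 57330 and 11.1 CPM). In animal 202 at 72 h, adipocyte markers summed to 319.9 CPM, above the other 6 (162 to 264), and leukocyte markers to 14.1 CPM, below the other 6 (15.2 to 19.9). The part of these cell types in the course of either animal was not tested.

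**Figure D4:**
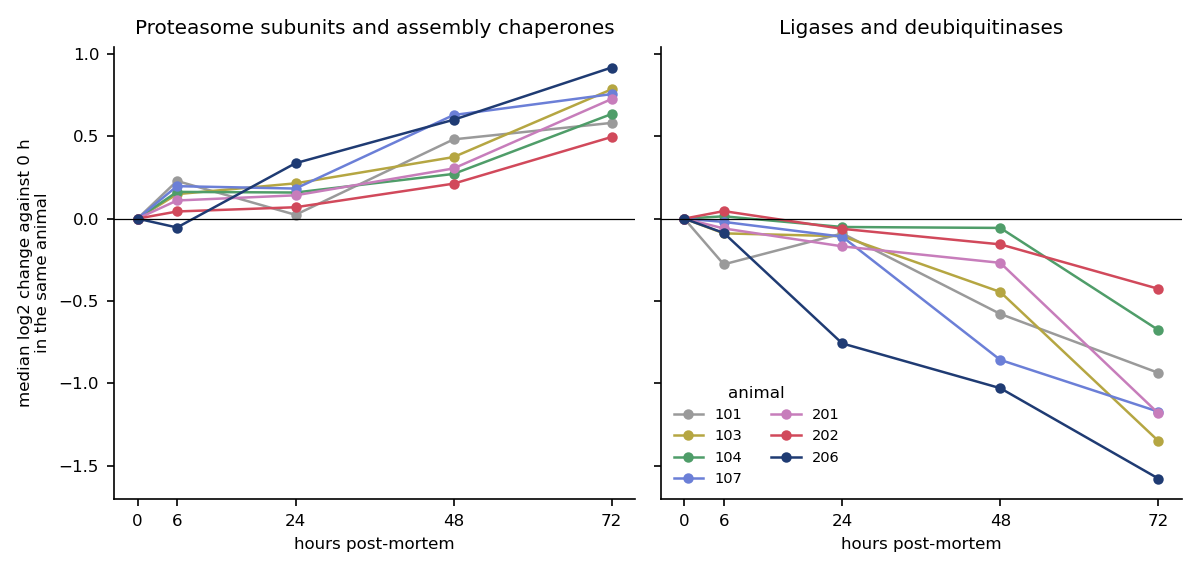
Median log2 change against 0 h in the same animal (y axis) by hours *post-mortem* (x axis) for the 6 proteasome subunits and assembly chaperones (left) and the 31 ligases and deubiquitinases (right), with 1 line per animal. Both sets fan out with time, and animal 206 already lies at -0.76 on the right at 24 h, whereas the other 6 lie between -0.17 and -0.051.

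The spread between animals grew with time. The median SD of log2 CPM over the 44 members was 0.192, 0.176, 0.285, 0.356 and 0.412 at the 5 time points in order (n = 7 animals each). Over all genes tested it went from 0.216 at 0 h to 0.301 at 72 h. The members were thus no more variable than other genes at the start and had the wider median spread from 24 h on, which is not a test, since the members were chosen for large changes at the late hours.

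**Figure D5:**
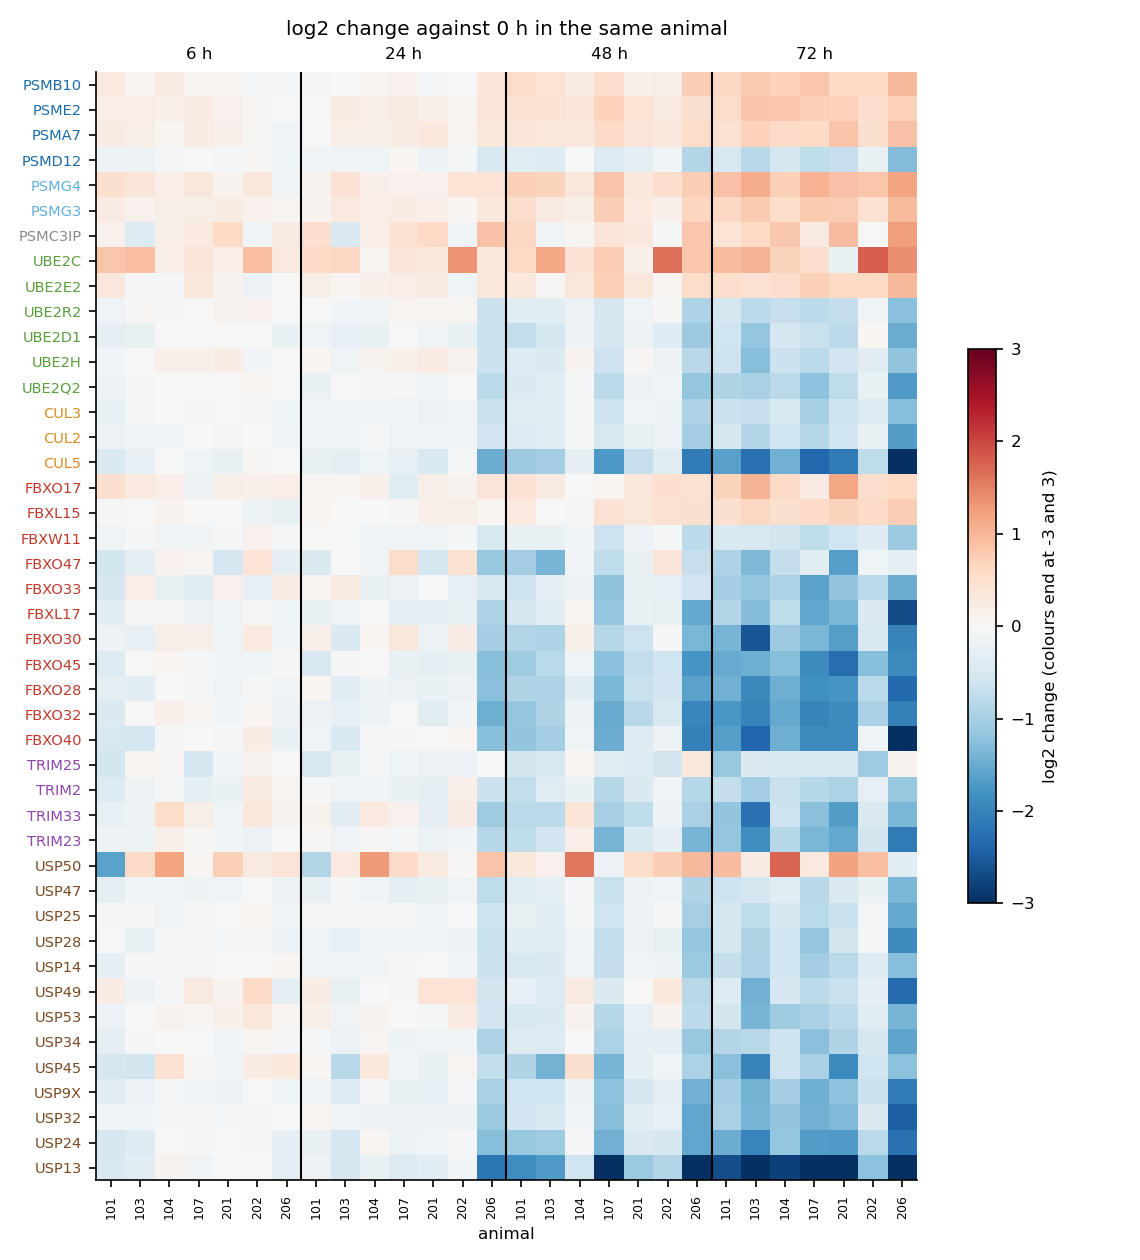
Log2 change against 0 h in the same animal (colour, blue lower and red higher, with the scale ending at -3 and 3) of the 44 members (rows, symbols coloured by role) in each animal (columns) at 6, 24, 48 and 72 h. The blue block of ligases and deubiquitinases appears in animal 206 at 24 h and is palest in animal 202 at 72 h. The mostly red rows are the proteasome genes other than *PSMD12*, together with *UBE2C*, *UBE2E2*, *FBXO17*, *FBXL15*, *USP50* and *PSMC3IP*.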

How the data were processed

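Core *LT* samples of 7 heifers at 5 time points were sequenced as mRNA libraries. Per the labels and the study's methods, the authors trimmed reads with Trimmomatic 0.39, mapped them to ARS-UCD1.2 with STAR 2.7.0f, counted them per Ensembl gene with featureCounts 1.6.4 and deposited raw counts, not normalized. The methods name strand-specific counting beside an option that ignores strand. The total counts match the range that the study gives for reads of the sense strand. Overlaps between genes were taken from their positions without regard to strand, so their effect on the counts is uncertain. FastQC 0.11.8 is also named. Animals were the replicates and were not pooled.

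Counts were fitted in R 4.3.3 with edgeR 4.0.16 (quasi-likelihood test) on all 35 samples, after filterByExpr (minimum count 10) and TMM scaling, with time point and animal in the model, and p-values were adjusted by Benjamini-Hochberg over 14630 genes. The same animal gave samples that deviated together (median r = 0.58 over 70 pairs, 0.29 to 0.77, compared with -0.12 for different animals). Log2 values used a prior count of 2. CPM used TMM-scaled totals and was not divided by length, so levels are not compared between genes. DESeq2 1.42.0 and limma 3.58.1 (voom), other scalings, filters and the omission of each animal were alternatives. The code was tested on simulated data.

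Symbols came from the study's DE lists, matched by Ensembl ID; the copy used here holds 1999 of the 2256 genes called lower at 72 h. Members and lists were chosen with earlier results of these data known. Genes were named in full where their prefix was PSM, for *FBXO32*, and for the 3 largest changes at 72 h per other role among genes with a mean of at least 1 CPM. Positions and sequences are not given, as no genome of this build was used here. RefSeq annotation of ARS-UCD2.0 served for symbols and overlapping genes only.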

Additional observations from a re-analysis of the deposited data

Results flagged for a closer look

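Of 110 groups of 7 animals (22 genes at 5 time points), 11 held an animal far from the others, where chance gives about 1 in 20 for independent groups. The 110 are not independent, being genes that move together in the same 7 animals, so that this rate is no yardstick for the count. In 5 of them animal 202 was high at 72 h. It had 72.6 CPM of *USP13* (next highest 22.8), 37.6 CPM of *CUL5* (19.3), 134.8 CPM of *FBXO40* (64.2), 9.41 CPM of *FBXO28* (4.84) and 12.3 CPM of *TRIM23* (6.66). Animal 206 stood apart at 24 h in 3 groups, low for *CUL5* at 22.9 CPM (next 47.1) and for *CUL2* at 38.0 CPM (next 50.2), and high for *PSMB10* at 20.8 CPM (next 15.8).

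The other 3 were single genes. Animal 103 had 114.7 CPM of *PSMA7* at 0 h (next 106.7), animal 107 had 11.6 CPM of *PSMB10* at 6 h (next 14.9), and animal 104 had 7.31 CPM of *TRIM33* at 0 h (next 10.8).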

How the results depend on the processing

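The counts of members DE at 72 h stayed between 10 and 11 upregulated and between 30 and 33 downregulated under 9 alternatives (RLE and upper quartile scaling, no filter, a filter of 1 CPM in 7 samples, no animal block, DESeq2, limma voom, FDR alone, and 0 h and 72 h samples only), and between 8 and 11 and between 29 and 33 when each animal was left out. The medians at 72 h ranged from 0.665 to 0.75 for the proteasome genes and from -1.04 to -0.861 for the ligases and deubiquitinases. All 22 genes named in full kept their direction, and *PSMC3IP* (0.567) and *PSMD12* (-0.578) missed the fold threshold without animal 206. From 6 h to 24 h no member passed under any alternative, with or without the block. From 24 h to 48 h, alternatives chosen after seeing the data changed the counts. Without the animal block (unpaired) 0 were higher and 0 lower, and without a filter 3 were lower. Leaving out 1 animal gave 3 to 5 higher, with 3 without animal 101 or 107, and 0 to 9 lower, with 0 without 101 or 107, 1 without 103 or 201 and 9 without 206, and the cause was not tested. At about 1 CPM and below, counting noise limits the precision. That holds for the upregulated *UBE2C*, *USP50* and *PSMC3IP*. It also holds for the downregulated *FBXO47* (mean 1.17 CPM over all samples) and *USP49* (mean 0.898 CPM at 72 h).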
